A study of Mus musculus with 6 samples.

Results

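The 10 genes described here encode the transforming growth factor beta (TGF-beta) isoforms Tgfb1, Tgfb2 and Tgfb3, the receptors Tgfbr1, Tgfbr2 and Tgfbr3, and the latent TGF-beta binding proteins Ltbp1, Ltbp2, Ltbp3 and Ltbp4. They were chosen by name as the genes of the TGF-beta store of bone matrix, and all 10 were found among the 24346 gene names. The RNA came from whole calvaria, the roof of the skull, of newborn mice. The 3 control libraries had the genotype Pth1rfl/fl (floxed alleles of the parathyroid hormone receptor gene Pth1r) and the 3 libraries labelled mutant had Prx1-Cre;Pth1rfl/fl, so floxed alleles were shared by both groups and the Cre transgene was the difference. Prx1-Cre is driven by regulatory sequence of Prrx1 and is known to act in limb and part of the skull mesenchyme, so blood, vessel and muscle cells of the homogenised tissue lie largely outside its reach. The labels do not say whether a library is 1 animal or a pool, and p-values here measure the spread between these libraries only.

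The values are FPKM (fragments per kilobase of transcript, scaled to library size), a level per length that allows genes to be set side by side. Pth1r itself had 89.2, 93.3 and 102 FPKM in controls, against 127, 125 and 142 FPKM in those labelled mutant, where loss of the gene would lower it. A gene-wide FPKM does not part the floxed exons from the others, and the directions given here rest on the labels. Col1a1, the main collagen of bone, had 9427 to 13131 FPKM, Col2a1 of cartilage 135 to 802 FPKM and Acta1 of skeletal muscle 3994 to 7812 FPKM, so bone was sampled together with cartilage and muscle. Several libraries stood apart in other tissue. Control 2 held 56.6 FPKM of the inner ear gene Oc90 against 1.00 or less elsewhere, control 1 had 30.9 FPKM of the meningeal gene Ptgds against 108 to 432 FPKM elsewhere, and library 3 labelled mutant had 2584 FPKM of the globin gene Hba-a1 against 4607 to 11515 FPKM elsewhere. Controls had 20.7 to 28.7 FPKM of the neural gene Tubb3, against 10.5, 59.2 and 7.63 FPKM in the libraries labelled mutant. Low values gave a relative depth of 0.702 to 0.973 for the other libraries with control 1 set to 1, and absolute depth is unknown.

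TGF-beta is secreted as an inactive complex. The precursor is cut by furin, but its propeptide stays folded around the growth factor, and within the cell this latent complex is joined to a latent binding protein that anchors it to fibrillin and fibronectin outside. Bone matrix is a large store of such complexes, which integrins, proteases and the acid of osteoclasts can open. The freed dimer binds the type II receptor (Tgfbr2), which phosphorylates the type I receptor (Tgfbr1), which in turn phosphorylates Smad2 and Smad3, while the type III receptor betaglycan (Tgfbr3) presents ligand to the other receptors. In the skull the pathway is known for its bearing on suture patency, and people with mutations of TGFBR1 or TGFBR2 can have early suture fusion.

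Across the family, Tgfb1 and Tgfbr1 had higher values in every library labelled mutant than in any control, and Ltbp1, Ltbp3 and Ltbp4 had lower values in every one. The differences were small, with mean ratios between 0.84 and 1.28, and none of the 10 genes passed the threshold of an adjusted p of 0.05 (limma on log2(FPKM + 1), Benjamini-Hochberg adjustment over 13180 genes), where 0.607% of all tested genes did. At an unadjusted p under 0.05 there were 5 of the 10, against 10.5% of all tested genes, with 2 higher (5.91% of all) and 3 lower (4.62%). The same 5 had groups that did not overlap, 2 of them higher and 3 lower, where 9.34% of all tested genes were apart and higher and 6.79% apart and lower. The 95% interval of the change, as a fold of FPKM + 1, stayed within 1.5-fold in either direction for each of the 10, between 0.73 and 1.46. All 10 passed the filter of a mean of at least 1 FPKM, and each had a mean level above that of at least 50.2% of the tested genes over the 6 libraries.

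**Figure D1:**
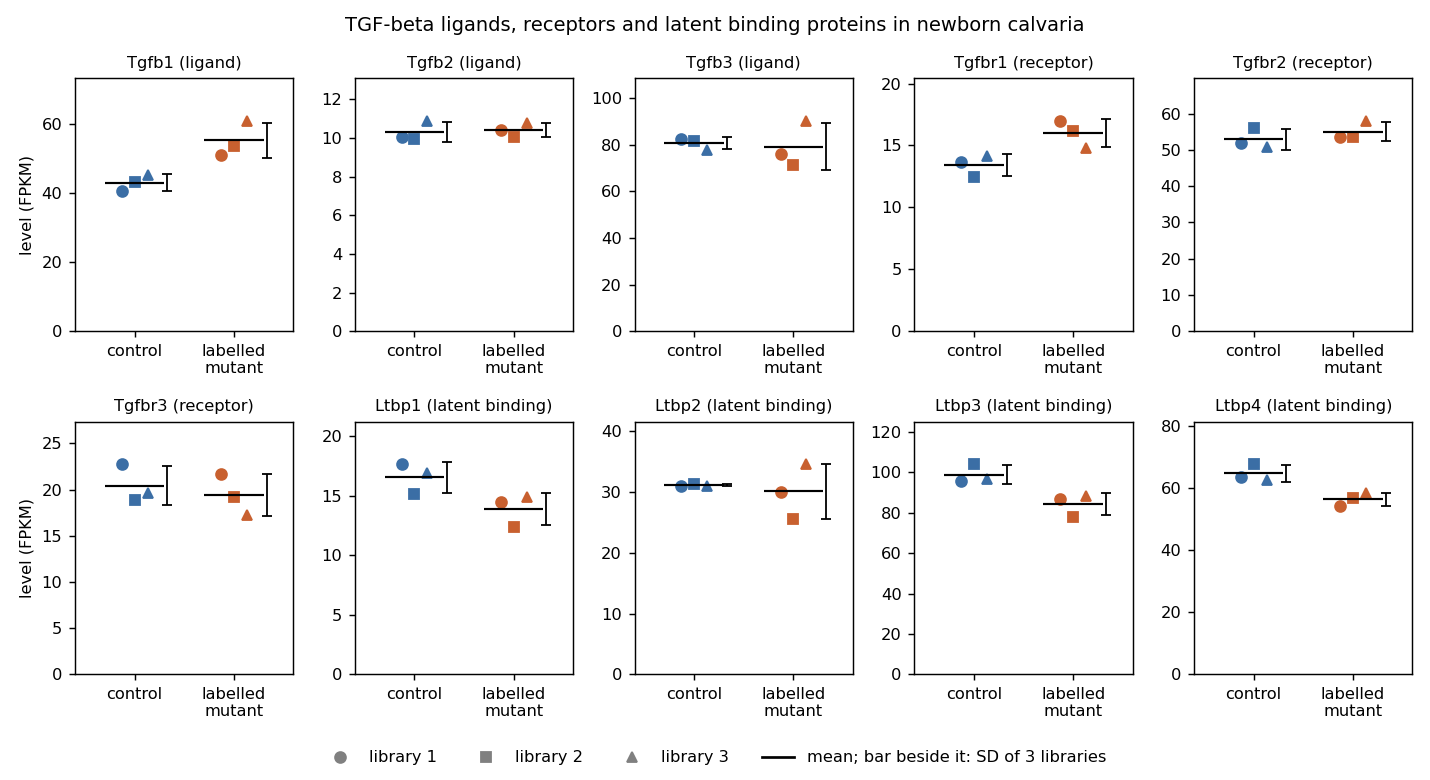
FPKM of each gene in the 3 control libraries (blue) and the 3 libraries labelled mutant (orange), with the library number as marker shape, the group mean as a line and the SD of 3 libraries as a bar; each axis starts at 0. The groups are apart for Tgfb1 and Tgfbr1, which are higher, and for Ltbp1, Ltbp3 and Ltbp4, which are lower in the libraries labelled mutant.

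Among the ligands, Tgfb1, the isoform that is most abundant in bone matrix and that blood platelets also store, lies on the plus strand of chromosome 7 at positions 25687002 to 25705077 of GRCm38. Its level was 40.6, 43.2 and 45.3 FPKM in controls, against 50.9, 53.7 and 60.9 FPKM in those labelled mutant. The lowest library labelled mutant was above the highest control, and library 3 labelled mutant was the highest of all. The means were 43.0 ± 2.35 and 55.2 ± 5.19 FPKM (SD, n = 3 each), a ratio of 1.28, and the log2 change was 0.35 ± 0.08 (SE; limma, Benjamini-Hochberg adjusted p = 0.17). Of all tested genes, 2.13% had a smaller p. Without any 1 library the log2 change of Tgfb1 ran from 0.28 to 0.40, and its adjusted p from 0.145 to 0.348 over 16 other settings.

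Marker lists of cell types that are known to make Tgfb1 are given beside it. The summed level of the 7 macrophage markers was 332 to 379 FPKM in controls, against 420 to 445 FPKM in those labelled mutant, with 2 of 7 past the threshold, Cd68 and Csf1r, both also expressed by osteoclasts. C1qb, the most abundant of the list, did not pass, at 83.1 to 96.3 FPKM in controls, against 94.5 to 107.7 FPKM in those labelled mutant. The 17 osteoclast markers summed to 701 to 788 FPKM and 1777 to 1926 FPKM, with 9 of 17 past the threshold, all higher, and the most abundant, the collagen-degrading protease Ctsk, at a ratio of 2.21. Of 12 osteoblast markers 1 rose, Ibsp, a mineral-binding matrix protein, at a ratio of 1.93. Among the other 11, Spp1, Alpl, Dmp1, Runx2 and Phex had higher values and groups apart, at ratios of 1.51, 1.41, 1.38, 1.21 and 1.35. The osteocalcin genes Bglap and Bglap2 had lower values and groups apart, at ratios of 0.381 and 0.387, and as near-identical copies they may share reads. The 6 vessel lining markers summed to 191 to 199 and 228 to 231 FPKM, with 1 past the threshold, Emcn, while the most abundant, Cdh5, had a ratio of 1.16. The 6 platelet and megakaryocyte markers, nearly all of it Pf4, summed to 129.9 to 162 and 157 to 172 FPKM. These sums overlapped between groups, and none of the genes passed the threshold. Pf4 itself was apart and higher, at 115.0 to 142.7 FPKM in controls, against 143.7 to 152.9 FPKM in those labelled mutant. Its adjusted p was 0.461 (limma, Benjamini-Hochberg), and Gp1bb was apart and lower, at a ratio of 0.733. The part of these cells in the level of Tgfb1 was not tested, and in whole tissue more cells of a type and more RNA per cell cannot be told apart.

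Tgfb2, an isoform that mice need for normal skull development, lies on the minus strand of chromosome 1 at 186622792 to 186705989. Its level was 10.05, 9.96 and 10.9 FPKM in controls, against 10.4, 10.03 and 10.8 FPKM in those labelled mutant. The groups overlapped almost fully, with a log2 change of 0.01 and a 95% interval of -0.14 to 0.17. It was the lowest of the 10 genes in both groups, and 124 bases of its exons are shared with the antisense gene Gm29491.

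Tgfb3, known for its part in palate closure, lies on the minus strand of chromosome 12 at 86056745 to 86079041. Its level was 82.5, 81.6 and 77.8 FPKM in controls, against 75.8, 71.2 and 90.3 FPKM in those labelled mutant. Libraries 1 and 2 labelled mutant were below every control and library 3 was above every control, so the means of 80.6 ± 2.50 and 79.1 ± 9.93 FPKM (SD, n = 3 each) differed by less than the spread. The log2 change was -0.03, with a 95% interval of -0.25 to 0.18, and without library 2 labelled mutant it was 0.0375. Exons of Tgfb3 share 257 bases with Gm48008 and 163 with Gm37804 on the other strand.

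As a share of the summed FPKM of the 3 ligands, Tgfb1 was larger in the libraries labelled mutant, and the shares of one sum are not independent of each other or of the levels above. Tgfb1 made up 30.5%, 32.1% and 33.8% of the ligand sum in controls, against 37.1%, 39.8% and 37.6% in those labelled mutant. Tgfb3 made up 62.0%, 60.6% and 58.1%, and then 55.3%, 52.8% and 55.7%. Neither share overlapped between groups. The mean share of Tgfb1 was 6.06 percentage points higher, with an exact two-sided permutation p = 0.1, the smallest that 3 libraries against 3 allow, and an adjusted p of 0.5 over the 10 shares computed (exact permutation). The level of Tgfb3 overlapped between groups, although libraries 1 and 2 labelled mutant were below every control, so the levels of both genes enter both shares. The smaller share of Tgfb3 is therefore no separate result from the larger share of Tgfb1. Tgfb2 stayed between 6.66% and 8.14% in all libraries. The ligand sum was 133.1, 134.7 and 133.95 FPKM in controls, against 137.1, 134.97 and 162 FPKM in those labelled mutant. The groups were apart by a narrow margin (exact two-sided permutation p = 0.1), and library 3 alone lay far from the rest.

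**Figure D2:**
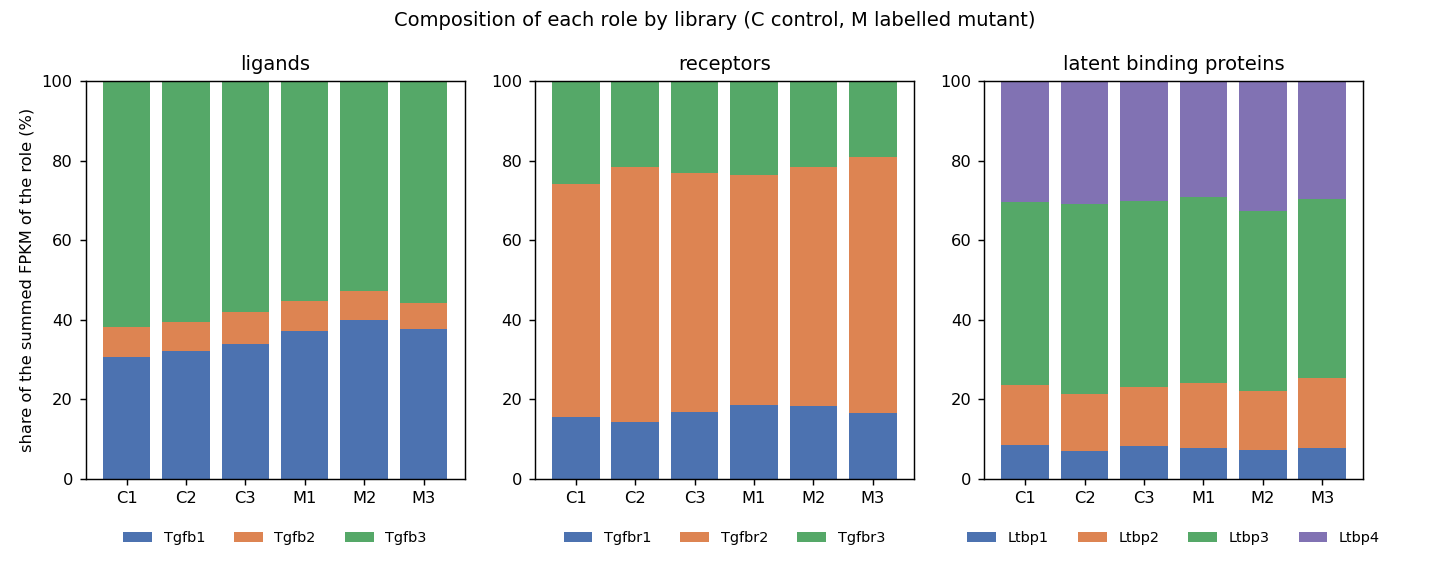
Share of each gene in the summed FPKM of its role, in percent, for ligands, receptors and latent binding proteins in control libraries 1 to 3 (C) and libraries 1 to 3 labelled mutant (M). The Tgfb1 segment spans 30.5% to 33.8% in controls, against 37.1% to 39.8% in those labelled mutant, while the latent binding proteins keep nearly the same proportions.

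Promoters of 4 of the 5 genes with separated groups are shown, each at 1 start site, and were read from RefSeq on GRCm38.p6, as the 250 bases before the start site, in windows that hold no annotated exon. Those of Tgfb1 (chr7:25686752-25687001, plus strand) and Tgfbr1 (chr4:47352972-47353221, plus strand, 1 of 2 listed starts) stand for the genes with higher values, and those of Ltbp3 (chr19:5740650-5740899, plus strand) and Ltbp4 (chr7:27333664-27333913, minus strand, 1 of 3 listed starts) for those with lower values. Capitals mark the GC box GGGCGG on either strand, overlaps counted.
Tgfb1: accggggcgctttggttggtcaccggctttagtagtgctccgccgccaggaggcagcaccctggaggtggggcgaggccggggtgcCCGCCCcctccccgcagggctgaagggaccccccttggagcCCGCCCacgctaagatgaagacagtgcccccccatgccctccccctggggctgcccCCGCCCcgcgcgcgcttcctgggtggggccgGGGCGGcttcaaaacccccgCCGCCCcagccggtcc
Tgfbr1: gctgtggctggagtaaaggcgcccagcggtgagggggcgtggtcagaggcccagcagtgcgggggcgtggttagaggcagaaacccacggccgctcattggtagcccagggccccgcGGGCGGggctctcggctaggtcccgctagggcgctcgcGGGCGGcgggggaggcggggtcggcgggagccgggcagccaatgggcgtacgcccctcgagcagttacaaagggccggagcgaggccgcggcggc
Ltbp3: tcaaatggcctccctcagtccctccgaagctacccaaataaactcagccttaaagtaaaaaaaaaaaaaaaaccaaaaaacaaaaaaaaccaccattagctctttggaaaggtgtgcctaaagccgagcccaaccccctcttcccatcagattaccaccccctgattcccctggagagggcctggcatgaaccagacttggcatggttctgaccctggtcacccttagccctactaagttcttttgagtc
Ltbp4: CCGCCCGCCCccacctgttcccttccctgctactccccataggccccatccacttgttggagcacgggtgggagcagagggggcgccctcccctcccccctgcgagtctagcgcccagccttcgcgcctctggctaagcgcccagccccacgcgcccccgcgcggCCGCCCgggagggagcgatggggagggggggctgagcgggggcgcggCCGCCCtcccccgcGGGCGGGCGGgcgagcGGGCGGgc
These windows held 5, 2, 0 and 7 GC boxes, and 32.7% of all 32851 promoter windows held at least 1. None of the 4 windows held the letters TGANTCA of AP-1 sites (6.75% of all windows), CAGACA of Smad sites (17.1%) or TGTGGT of Runx sites (14%), searched on both strands. That holds for these windows alone, since the second listed start of Tgfbr1 has 1 Smad match in its window, and the second start of Ltbp1, the separated gene not shown, has 2 Smad and 2 Runx matches. GC boxes thus stood in windows of genes of either direction. The table held windows for 8 of the 10 genes, the others being Tgfb3 and Tgfbr3.

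Of the receptors, Tgfbr1, the type I receptor kinase, lies on the plus strand of chromosome 4 at 47353222 to 47414931. Its level was 13.6, 12.5 and 14.2 FPKM in controls, against 17.0, 16.1 and 14.8 FPKM in those labelled mutant. The groups did not overlap, although library 3 labelled mutant was within 1 FPKM of control 3. The means were 13.4 ± 0.87 and 16.0 ± 1.12 FPKM (SD, n = 3 each), a ratio of 1.19, and the log2 change was 0.23 ± 0.08 (SE; limma, Benjamini-Hochberg adjusted p = 0.309). Over 16 other settings the adjusted p of Tgfbr1 ran from 0.153 to 0.635.

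Tgfbr2, the type II receptor that binds ligand first, lies on the minus strand of chromosome 9 at 116084293 to 116175360 and was the most abundant receptor. Its level was 51.9, 56.1 and 50.7 FPKM in controls, against 53.6, 53.6 and 58.1 FPKM in those labelled mutant. The groups overlapped, with a log2 change of 0.06 and a 95% interval of -0.09 to 0.21. Tgfbr3, the betaglycan gene, lies on the minus strand of chromosome 5 at 107106570 to 107289629. Its level was 22.8, 18.9 and 19.6 FPKM in controls, against 21.7, 19.2 and 17.3 FPKM in those labelled mutant, again overlapping, with a log2 change of -0.07 and a 95% interval of -0.32 to 0.17. Tgfbr2 exceeded Tgfbr1 by 3.58 to 4.49 times in controls and 3.15 to 3.93 times in the libraries labelled mutant. These ratios overlapped between groups (exact two-sided permutation p = 0.3), and so did the shares of all 3 receptors in their sum.

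The latent binding proteins were the role in which all genes had lower mean values in the libraries labelled mutant. Ltbp3, the most abundant of the 10 genes in both groups, encodes a carrier of latent TGF-beta whose loss in mice is known to cause early ossification in the skull base and dense bone. It lies on the plus strand of chromosome 19 at 5740904 to 5758532. Its level was 95.8, 104 and 96.9 FPKM in controls, against 86.6, 78.0 and 88.5 FPKM in those labelled mutant. The highest library labelled mutant was below the lowest control. The means were 99.0 ± 4.63 and 84.4 ± 5.61 FPKM (SD, n = 3 each), a ratio of 0.852, with a log2 change of -0.23 ± 0.07 (SE; limma, Benjamini-Hochberg adjusted p = 0.27).

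Ltbp4, a carrier of latent TGF-beta that also takes part in elastic fibre assembly, lies on the minus strand of chromosome 7 at 27305136 to 27337692. Its level was 63.5, 67.7 and 62.5 FPKM in controls, against 54.1, 56.6 and 58.3 FPKM in those labelled mutant. Again no library labelled mutant reached the lowest control. The means were 64.6 ± 2.75 and 56.3 ± 2.13 FPKM (SD, n = 3 each), a ratio of 0.872, with a log2 change of -0.19 ± 0.06 (SE; limma, Benjamini-Hochberg adjusted p = 0.268).

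Ltbp1, the founding carrier of the family, spans chromosome 17 from 75005568 to 75392512 on the plus strand and is transcribed from more than 1 start, which a gene-wide FPKM does not part. Its level was 17.7, 15.1 and 16.9 FPKM in controls, against 14.4, 12.4 and 14.9 FPKM in those labelled mutant. The groups were apart by a narrow margin, between control 2 and library 3 labelled mutant. The log2 change was -0.24 ± 0.09 (SE; limma, Benjamini-Hochberg adjusted p = 0.414), with a mean ratio of 0.84.

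Ltbp2, which unlike its relatives does not bind latent TGF-beta and is a fibrillin-associated matrix protein, lies on the minus strand of chromosome 12 at 84783212 to 84876532 and shares 764 exonic bases with the antisense gene D030025P21Rik. Its level was 31.1, 31.3 and 31.0 FPKM in controls, against 30.1, 25.6 and 34.7 FPKM in those labelled mutant. The controls were nearly equal, with a coefficient of variation of 0.505%, and the libraries labelled mutant spread around them with one of 15%, the lowest and the highest among the 10 genes. The log2 change of Ltbp2 was -0.06, with a 95% interval of -0.30 to 0.19, and without library 2 labelled mutant it was 0.052.

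**Figure D3:**
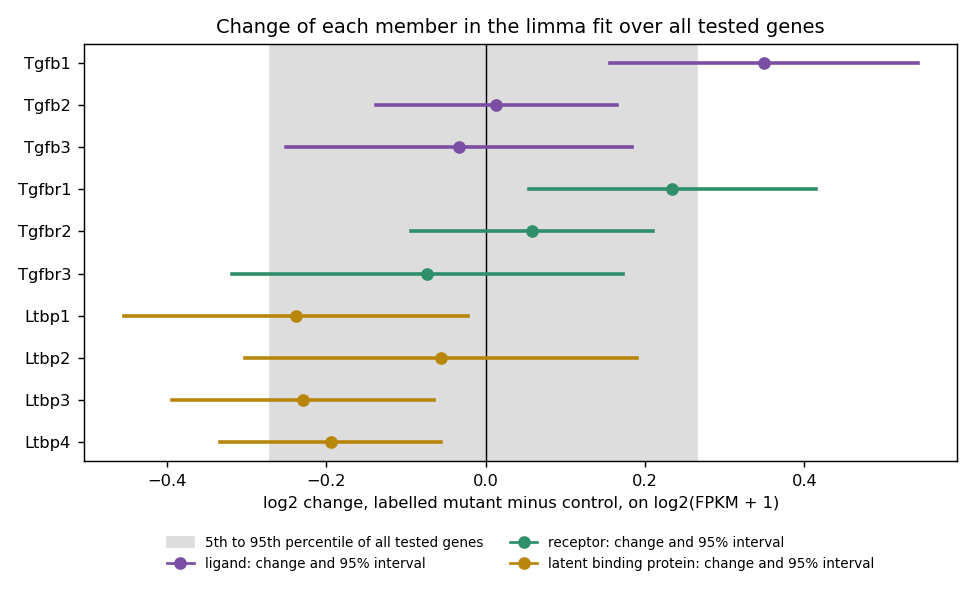
Log2 change of each gene (labelled mutant minus control, on log2(FPKM + 1)) with its 95% interval, coloured by role; the grey band spans the 5th to 95th percentile of the changes of all 13180 tested genes. Tgfb1 lies above the band at 0.35, and the other 9 genes lie within it, with Ltbp1, Ltbp3 and Ltbp4 between -0.24 and -0.19.

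The proportions among the latent binding proteins differed little, with Ltbp3 at 45.1% to 47.8%, Ltbp4 at 29.2% to 32.8%, Ltbp2 at 14.3% to 17.7% and Ltbp1 at 6.92% to 8.50% of their sum over all libraries. The sum of all 4 was 208, 218 and 207 FPKM in controls, against 185, 173 and 196 FPKM in those labelled mutant, a ratio of means of 0.874 (exact two-sided permutation p = 0.1, the smallest possible). Separation was not particular to this role. The receptor sum was 88.3, 87.5 and 84.5 FPKM in controls, against 92.3, 89.0 and 90.2 FPKM in those labelled mutant. The sums of the 3 ligands and the 3 receptors were apart and higher, at ratios of 1.08 and 1.04, each with the same permutation p. A ratio of carriers to ligands was chosen after these values were seen. The summed FPKM of the carriers Ltbp1, Ltbp3 and Ltbp4 was 1.33, 1.39 and 1.32 times that of the 3 ligands in controls and 1.13, 1.09 and 0.998 times in the libraries labelled mutant. The means were 1.35 ± 0.04 and 1.07 ± 0.07 (SD, n = 3 each). These ratios did not overlap (exact two-sided permutation p = 0.1). That was fixed by their parts, since the carrier sum was apart and lower and the ligand sum apart and higher. It is no separate result. Messenger RNA levels do not give the amounts of protein or of latent complex.

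Marker lists of other tissue are given beside the latent binding proteins too. The 17 cartilage markers summed to 2675, 2682 and 1467 FPKM in controls, against 991, 788 and 968 FPKM in those labelled mutant, with 6 of 17 past the threshold, all lower. The 6 smooth muscle and pericyte markers summed to 226 to 233 FPKM in controls, against 201 to 215 FPKM in those labelled mutant, with none past the threshold, 2 higher and 4 lower values and a median log2 change of -0.07. The part of either tissue in the levels of these genes was not tested.

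Within its group, library 3 labelled mutant had the highest value of every one of the 10 genes except Tgfbr1 and Tgfbr3, of which it had the lowest. The same library had the highest sum of the 12 osteoblast markers, 30169 FPKM against 21385 to 23898 FPKM in the other 5, a sum made up mostly of Col1a1 and Col1a2. From library 2 to library 3 labelled mutant, which hold the extremes of both genes, the level ratio was 1.27 for Tgfb3 and 1.35 for Ltbp2. The part of bone content in this spread was not tested.

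**Figure D4:**
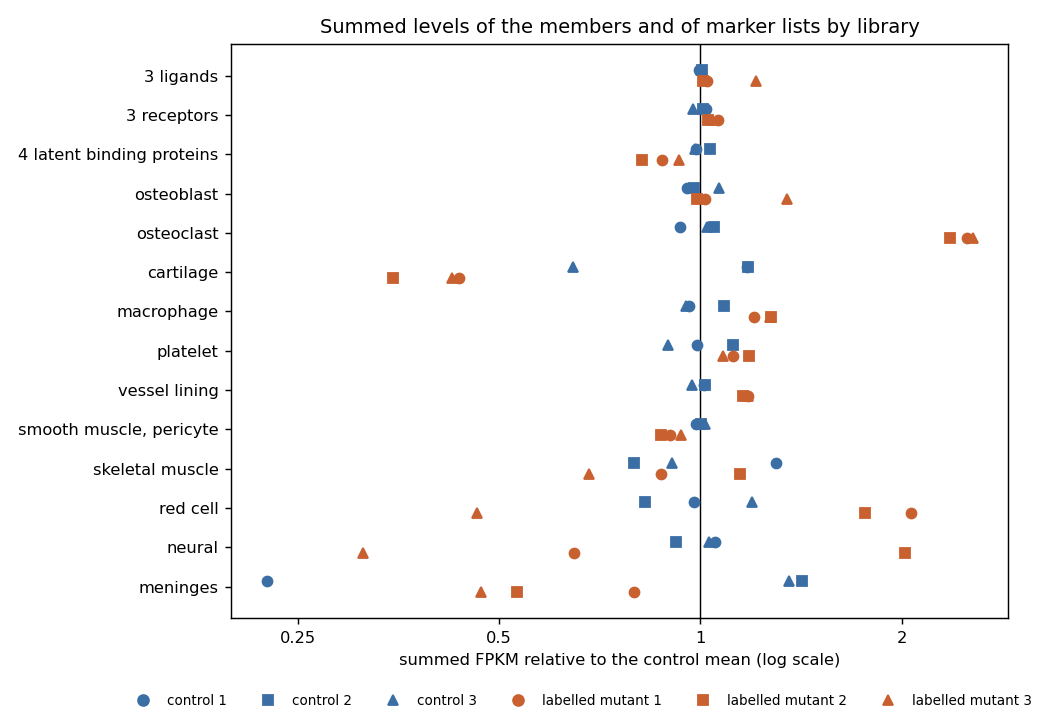
Summed FPKM of the ligands, receptors, latent binding proteins and marker lists in each library, divided by the control mean of the same list, on a log scale; blue points are controls and orange points libraries labelled mutant, with the library number as shape. The spread of the 3 roles is narrow beside that of the osteoclast, cartilage, red cell, neural and meningeal lists.

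By mean level, the order in controls was Ltbp3, Tgfb3, Ltbp4, Tgfbr2, Tgfb1, Ltbp2, Tgfbr3, Ltbp1, Tgfbr1 and Tgfb2, from 99.0 to 10.3 FPKM, and no range of 3 libraries overlapped that of its neighbour. In the libraries labelled mutant Tgfb1 stood beside Tgfbr2 and Ltbp4, at 55.2, 55.1 and 56.3 FPKM, and these 3 overlapped. Ltbp3 and Tgfb3 also overlapped there, at 84.4 and 79.1 FPKM, as did Tgfbr1 and Ltbp1, at 16.0 and 13.9 FPKM. For the most abundant gene of each role, the tested genes whose log2 values followed it most closely over the 6 libraries were listed by Pearson correlation. They were Naprt, Phf19 and Scfd1 for Tgfb3 (r = 0.998, 0.981 and 0.981), Rhoc, Lat2 and Angptl6 for Tgfbr2 (0.991, 0.989 and 0.989), and Cuedc1, Ppp1r3b and Gsc for Ltbp3 (0.992, 0.992 and 0.99). With only 6 libraries, which differ in group, depth and content of other tissue, 102, 117 and 257 genes had an r over 0.9 with these 3 genes. The values thus describe these libraries only.

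Of the wider pathway, 80 genes in 5 lists were looked up, 73 could be tested, 2 rose and 0 fell, where 0.524% of all tested genes rose and 0.0835% fell. The median log2 change of the 73 was 0.02, against 0.00 for all tested genes. Both rises were in the list of genes that release or activate latent TGF-beta, and both genes are also osteoclast markers. Mmp9, a gelatinase of osteoclasts that can cleave the latent complex, had 83.4, 118 and 114 FPKM in controls, against 375, 349 and 384 FPKM in those labelled mutant, a log2 change of 1.82 ± 0.13 (SE; limma, Benjamini-Hochberg adjusted p = 0.00349). Itgb3, the beta subunit of the osteoclast integrin alphaV beta3, had 7.13, 7.28 and 7.29 FPKM in controls, against 17.4, 16.2 and 14.2 FPKM in those labelled mutant, a log2 change of 1.04 ± 0.08 (SE; limma, Benjamini-Hochberg adjusted p = 0.00415). Both were far apart between groups.

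The other 12 tested genes of that list did not pass. Itgav, the alphaV subunit that pairs with Itgb3 and Itgb5, had 13.4, 12.4 and 13.2 FPKM in controls, against 16.8, 14.7 and 16.9 FPKM in those labelled mutant, apart but with an adjusted p of 0.199 (limma, Benjamini-Hochberg). Furin, the protease that cuts the precursor, had 43.4 ± 3.55 and 42.9 ± 0.09 FPKM (SD, n = 3 each). Mmp2 and Mmp14, matrix proteases that can act on latent TGF-beta, had ratios of 0.887 and 1.04, and Thbs1, the activator thrombospondin, one of 0.889. Itgb6, Itgb8 and Plg were under a mean of 1 FPKM and were not tested. The median of the list was 0.04.

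Among 12 matrix proteins that hold latent complexes or bind TGF-beta, 0 passed, 8 had lower and 4 higher values, and the median log2 change was -0.13. Fbn2, a fibrillin of growing tissue that latent binding proteins attach to, had 40.9, 38.4 and 37.5 FPKM in controls, against 35.3, 29.6 and 32.0 FPKM in those labelled mutant, apart but with an adjusted p of 0.253 (limma, Benjamini-Hochberg). The more abundant Fbn1 had 74.1 ± 5.09 and 75.1 ± 7.38 FPKM (SD, n = 3 each). Fmod, the TGF-beta-binding proteoglycan fibromodulin, had 380, 312 and 328 FPKM against 230, 206 and 308 FPKM, and Adamtsl2, a protein that binds Ltbp1, had 2.05, 1.84 and 1.99 FPKM against 1.57, 1.32 and 1.22 FPKM (limma, Benjamini-Hochberg adjusted p = 0.313 and 0.297). Fn1, the fibronectin scaffold of the latent complex, was the fourth gene apart and lower, at a ratio of 0.917. Of the 12, 4 were thus apart and lower and 0 apart and higher, against 6.79% and 9.34% of all tested genes. Decorin (Dcn) and biglycan (Bgn), proteoglycans that bind TGF-beta, had ratios of 0.918 and 0.914 with overlapping groups.

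**Figure D5:**
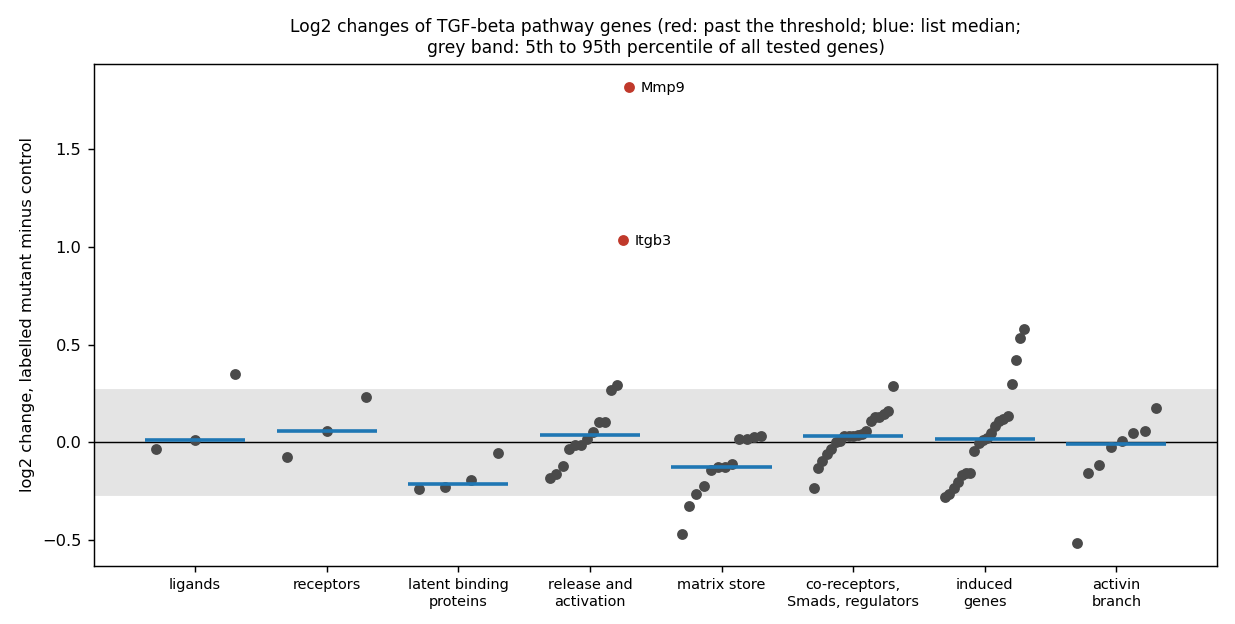
Log2 change (labelled mutant minus control, on log2(FPKM + 1)) of every tested gene of the 10 and of 5 pathway lists, with the list median as a blue line, genes past the threshold in red and the 5th to 95th percentile of all tested genes as a grey band. Mmp9 at 1.82 and Itgb3 at 1.04 are the 2 red points, and the list medians lie between -0.21 for the latent binding proteins and 0.06 for the receptors.

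None of the 19 co-receptors, Smads and their regulators passed, with 14 higher and 5 lower values and a median log2 change of 0.03. The signal carriers Smad2, Smad3 and Smad4 had ratios of 0.894, 1.104 and 1.03. Smad3 was apart by a narrow margin, at 19.2 to 19.7 FPKM in controls, against 20.0 to 24.5 FPKM in those labelled mutant. The smallest p belonged to Cd109, a membrane protein that binds TGF-beta and dampens its signal, at 21.8, 19.8 and 19.3 FPKM in controls, against 24.7, 22.4 and 28.0 FPKM in those labelled mutant. Next were Tab1, an activator of the kinase Map3k7, at 14.1 ± 0.37 and 15.6 ± 0.45 FPKM, and Eng, the endothelial co-receptor endoglin, at 42.4 ± 2.08 and 46.4 ± 0.84 FPKM (SD, n = 3 each). All 3 were apart and higher, with adjusted p of 0.297, 0.423 and 0.514 (limma, Benjamini-Hochberg). With Smad3 and Smurf2, 5 of the 19 were apart and higher and 0 apart and lower, against 9.34% and 6.79% of all tested genes.

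The 20 genes that TGF-beta is known to induce went both ways, with 11 higher and 9 lower values, a median log2 change of 0.02 and 0 past the threshold. Apart and higher were Cdkn2b, an inhibitor of cyclin-dependent kinases, at 0.828 ± 0.121 and 1.74 ± 0.304 FPKM, and Fap, a protease of activated fibroblasts, at 48.0 ± 7.57 and 58.9 ± 4.94 FPKM (SD, n = 3 each). Apart and lower were the contractile genes Tagln and Acta2, at ratios of 0.823 and 0.847, which are also smooth muscle markers, and Tgfbi, Pmepa1 and Snai1, at ratios of 0.833, 0.888 and 0.866. Adjusted p were 0.135 for Cdkn2b, 0.237 for Tagln and 0.279 for Acta2 (limma, Benjamini-Hochberg). The feedback inhibitor Smad7, a direct target held in the Smad list, had 7.73, 9.004 and 8.09 FPKM in controls, against 7.45, 7.71 and 8.51 FPKM in those labelled mutant, with overlapping groups. The 7 early response and stress genes, which move with injury or handling of tissue and of which 0 passed the threshold, summed to 72.8 to 145 FPKM in controls, against 118 to 150 FPKM in those labelled mutant. The most abundant of them, Jun, had a ratio of 0.987. Higher means were seen for Fos, Egr1 and Junb, at ratios of 1.961, 1.496 and 1.45, each with overlapping groups. Lower means were seen for Hspa1a, Hspa1b and Atf3, at ratios of 0.759, 0.858 and 0.994. Junb is also among the 20 induced genes, so the lists are not separate. The part of injury or handling in the levels of the induced genes was not tested.

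In the activin branch, which signals through the same Smad2 and Smad3, 8 of 12 genes could be tested and 0 passed, with 4 higher and 4 lower values and a median log2 change of -0.01. Inhbb, an activin subunit, had 2.07, 2.54 and 1.95 FPKM in controls, against 1.24, 1.52 and 0.949 FPKM in those labelled mutant, apart with a log2 change of -0.51 and an adjusted p of 0.216 (limma, Benjamini-Hochberg). Mstn, the muscle growth inhibitor myostatin, and Gdf11, its close relative, had ratios of 1.25, with groups apart, and 0.865, with adjusted p of 0.652 and 0.823 (limma, Benjamini-Hochberg). Every ligand of this branch that was tested had a mean under 4 FPKM, below all 3 TGF-beta isoforms.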

How the data were processed

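Total RNA of homogenised newborn calvaria was sequenced after a stranded messenger RNA preparation, per the labels' protocols. The deposited values are FPKM, 1 table per library with 24346 gene names, and they were used as deposited. The unit was inferred from the listed tools and the values. The authors' programs, per the submitters' processing notes, included Cufflinks 2.2.1 and SAMtools 0.1.19, along with Bowtie2 2.2.3 and TopHat2 2.0.13, and the build was mm10. The sources used here give no options, annotation, use of strand or normalization between libraries. Without strand, reads of a gene and its antisense partner cannot be told apart. Groups and replicate numbers come from the sample titles.

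The 13180 genes whose mean reached 1 FPKM entered the test on log2(FPKM + 1), a scale that understates changes of low genes, with limma 3.58.1 in R 4.3.3 (lmFit, eBayes with trend, group as the only term, two-sided, Benjamini-Hochberg adjustment at 0.05). Ratios are of mean FPKM. Shares and ratios between genes were tested by exact permutation over libraries. The fit was tested on simulated data. The 10 genes and the lists were chosen with earlier results of these data known. In each pathway list the text names genes past the threshold and the 3 with the smallest p, and in each marker list the most abundant gene. Other genes were named after their values were seen. Older symbols were matched through a RefSeq table (Ccn2 is listed as Ctgf), and Hbb-bt matched no name. Positions are from GENCODE M21 on GRCm38, the assembly mm10 denotes. The other settings were a pseudocount of 0.1, no filter, a minimum mean of 5 FPKM, median-of-ratios and quantile scaling, eBayes without trend, robust eBayes, array weights, a replicate block, a sex term and leaving out each library. Sex for that term was read from Xist and Y-linked genes, with 2 of 3 controls and 1 of 3 libraries labelled mutant coded female.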

Additional observations from a re-analysis of the deposited data

How the results depend on the processing

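No setting among the 16 tried brought any of the 10 genes past the threshold, and Mmp9 and Itgb3 were the 2 pathway genes that rose in each. The 5 genes with separated groups kept their direction in all of them. Genes past the threshold over the whole table numbered 69 higher and 11 lower, and became 44 and 6 with no filter, 152 and 31 with array weights, 41 and 2 with a sex term, and 23 and 2 with the replicate block. Leaving out each library gave 15 to 34 higher and 1 to 12 lower. Genes of the 10 apart and lower were 3, or 5 without library 3 labelled mutant, when Tgfb3 and Ltbp2 joined (range 3 to 5). Those apart and higher were 2, or 3 without control 2, when Tgfbr2 joined. The log2 change of Pth1r passed with array weights (0.40, adjusted p = 0.0458). Array weights turned the near-zero changes of Tgfb2 (-0.015) and Tgfbr3 (0.015). Leaving out each library gave ranges of -0.011 to 0.051 for Tgfb2 (below 0 without control 1, control 2 or library 3 labelled mutant), -0.15 to 0.00445 for Tgfbr3 (above 0 without control 1 or library 3 labelled mutant), -0.13 to 0.0375 for Tgfb3 and -0.16 to 0.0521 for Ltbp2 (both above 0 without library 2 labelled mutant). The share of Tgfbr2 among receptors differed by -1.815 to 1.53 percentage points and that of Ltbp4 among latent binding proteins by -1.13 to 0.671, or 0.08665 with quantile normalization. The cause was not tested. Same-numbered libraries did not deviate together (correlations of 0.016, -0.071 and 0.015, against -0.059 to 0.045 for other pairs). No pairing by replicate number was thus seen, which does not exclude a source shared by same-numbered libraries. The replicate block left 0 of the 10 past the threshold. With 3 libraries a group and unknown read totals, the size of each change is known only within its 95% interval. These intervals, not adjusted for the number of genes, excluded 0 for the 5 genes with separated groups. They ran from 0.16 to 0.54 for Tgfb1 and from -0.45 to -0.02 for Ltbp1. For the rest the intervals held 0, and changes within them could not be resolved.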
